A study of Homo sapiens with 12 samples.

Results

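The 40 genes described here build and run the primary cilium. They were taken by name from a fixed list and found in the deposited table after its transcripts had been summed per gene with GENCODE, which gave 57527 genes in all. Every one of the 40 passed the filter on low values (a signal of at least 1 in at least 3 libraries), as did 16789 genes overall. HK-2 cells, an established line of human proximal tubule epithelium, grew for 72 h without addition (control) or with 60, 120 or 240 ug/ml of 2,8-dihydroxyadenine (DHA) suspended in their medium, and each of the 4 groups has 3 libraries. DHA is a poorly soluble purine that crystallizes in the kidney when adenine phosphoribosyltransferase is missing. The series asks how it affects kidney epithelial cells. No vehicle control is described in the labels, and all groups are the same unmodified line.

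The primary cilium is a single, non-motile antenna that most kidney epithelial cells project from a centriole into the tubule lumen. Its parts are carried in and out by intraflagellar transport (IFT), in which trains of IFT-B and IFT-A proteins are pulled towards the tip by kinesin-2 and back to the base by dynein-2. The BBSome rides on these trains and moves membrane proteins, the transition zone gates the base, and the distal appendages fix the mother centriole to the membrane. Mutations in many of these genes cause cystic kidneys, nephronophthisis or Bardet-Biedl syndrome. Levels below are the deposited normalized signal, whose unit is not named in the sources used here and which keeps no read depth. Changes are log2 fold changes of signal + 1 with the SE of a limma fit to the 12 libraries, and a gene is called at an adjusted p under 0.05 over all 16789 genes.

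Some facts of the whole data set touch these genes. Of the markers of proximal tubule, 5 of 15 passed the filter: GGT1, PAX8, GATM, MME and SLC5A2 were measured, while LRP2, SLC22A6 and SLC22A8 were listed at 0 in every library. Markers of motile cilia were low, with 8 of 14 under 1 in every library, DNAI2 and TEKT1 at 0, and their summed level at 14.3 to 27.0 at 240 ug/ml and 19.0 to 25.4 in control. The fibroblast list, 7 genes of which COL1A1, DCN and LUM passed the filter and COL1A2 was at 0, summed to 38.8 to 65.9 at 240 ug/ml and to 246.9 to 342.3 in control, and the part of this shift in the changes below was not tested. A principal component analysis put 42.4% of the variance on its first axis, where the third library at 60 ug/ml lay at 5.56, apart from -12.6 and -20 for the other two. Library totals ran from 791808 to 1228979 and were lower with DHA, so the choice of scaling matters: over all genes at 240 ug/ml the median log2 fold change is 0.34 with equal totals and -0.03 as deposited. Directions below hold for the values as deposited, and where equal totals change a group this is said beside it.

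With 240 ug/ml DHA cilium genes were called in both directions. Of the 40, 13 (32.5%) were lower and 10 (25%) higher than in control, where 43.1% of all genes tested were called, 23.5% lower and 19.7% higher. Among protein-coding genes alone 50.1% were called, 26.9% lower and 23.1% higher, so the members' counts lay near the background. IFT and motor genes made up 8 of the 13 lower ones, led by IFT52 (-1.06), IFT20 (-1.04) and IFT22 (-1.02). These roles cover 7 IFT-B core, 5 peripheral IFT-B, 3 IFT-A and 4 motor genes of the 40. TRAF3IP1, KIF3B and DYNC2H1, of the same roles, were higher. The higher ones were led by the distal appendage genes CEP83 (1.01) and CEP164 (0.74) and by PKD1 (0.89). The median over the 40 was -0.10, beside -0.03 over all genes. In these bulk samples, fewer cells that make an RNA and less of it per cell cannot be told apart. At 120 ug/ml 9 were lower and 7 higher (of all genes 36.7%, 20.8% lower and 15.9% higher), with a median of -0.17. Of protein-coding genes 43% were called there, 24.2% lower and 18.7% higher. At 60 ug/ml 10 were lower and 3 higher (of all genes 18.9%, 10% lower and 8.89% higher), with a median of -0.21. Of protein-coding genes 23.1% were called at that dose, 12% lower and 11% higher. Scaled to equal totals, the counts became 6 lower and 18 higher at 240, 6 and 13 at 120, and 3 and 5 at 60 ug/ml, while the median over all genes moved to 0.34, 0.27 and 0.13. Shares of all genes called higher or lower under equal totals are not given here. Counts with equal totals, here and below, therefore have no background beside them. All 10 genes higher at 240 ug/ml stayed higher under that scaling, and 6 of the 13 lower ones stayed lower.

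**Figure D1:**
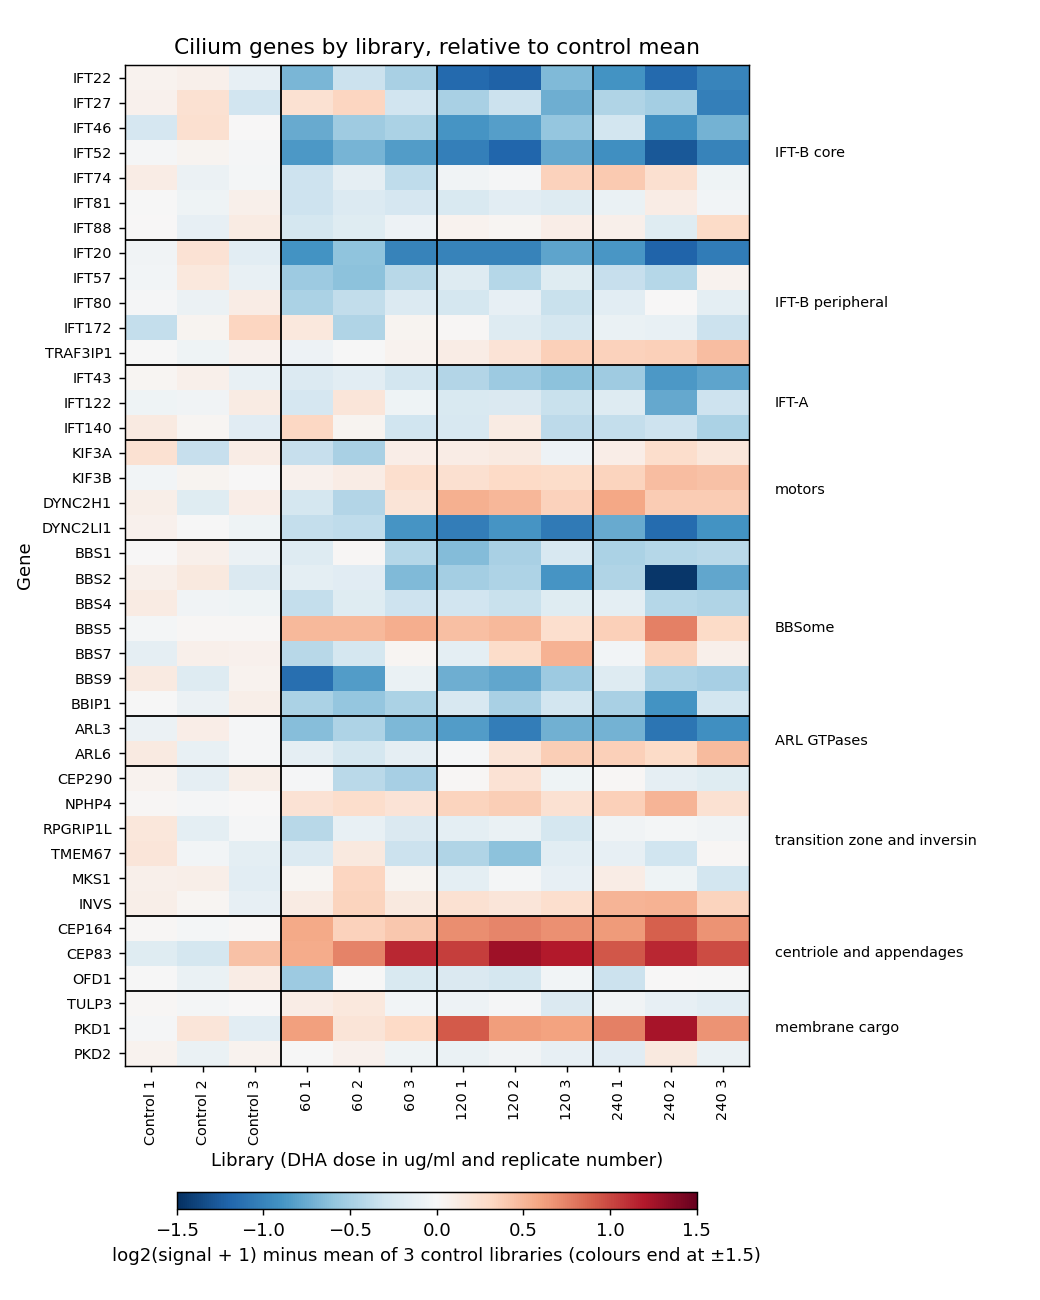
Signal of the 40 cilium genes in each of the 12 libraries, as log2(signal + 1) minus the mean of the 3 control libraries (colour scale from -1.5 to 1.5). Rows are ordered by role, and columns run from control to 240 ug/ml. IFT22, IFT52, IFT20, DYNC2LI1 and ARL3 are blue, and CEP164 and CEP83 red, in all 9 DHA libraries.

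Across doses, 6 members were lower at all 3 doses (IFT22, IFT46, IFT52, IFT20, DYNC2LI1 and ARL3), and 3 were higher at all 3 (BBS5, CEP164 and CEP83). With equal totals IFT22, IFT46 and DYNC2LI1 were not called at 60 ug/ml and IFT46 not at 240, so that IFT52, IFT20 and ARL3 remained lower at all doses; the same 3 genes remained higher. Another 13 were called at no dose. The 3 comparisons share the control libraries. The share of all genes called alike at all 3 doses, or at no dose, was not computed. These counts across doses therefore have no background beside them. Libraries that did not overlap control were counted separately: at 240 ug/ml, 15 members lay below every control library and 10 above, where 28.7% and 24.2% of all genes did. The counts below and above control were 18 and 9 at 120 ug/ml (27.3% and 21.7% of all genes) and 14 and 7 at 60 ug/ml (20.3% and 16.2%). By the F statistic for any difference among the 4 groups, 24 members were called, beside 42.7% of all genes. Group means were lower at each higher dose for 8 members (IFT22, IFT52, IFT20, IFT172, IFT43, IFT122, BBS2 and ARL3) and higher at each higher dose for 5 (KIF3B, NPHP4, INVS, CEP164 and PKD1). The shares of all genes in these orders were not computed. Of these members, IFT172 and IFT122 were not called by the F statistic (adjusted p = 0.829 and 0.105). The comparison of 240 with 120 ug/ml called 0 members and 0 genes of any kind with limma, and 2 members had an unadjusted p under 0.05. Between 120 and 60 ug/ml 0 members were called (13 with an unadjusted p under 0.05), beside 2.14% of all genes, 1.61% lower and 0.536% higher.

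**Figure D2:**
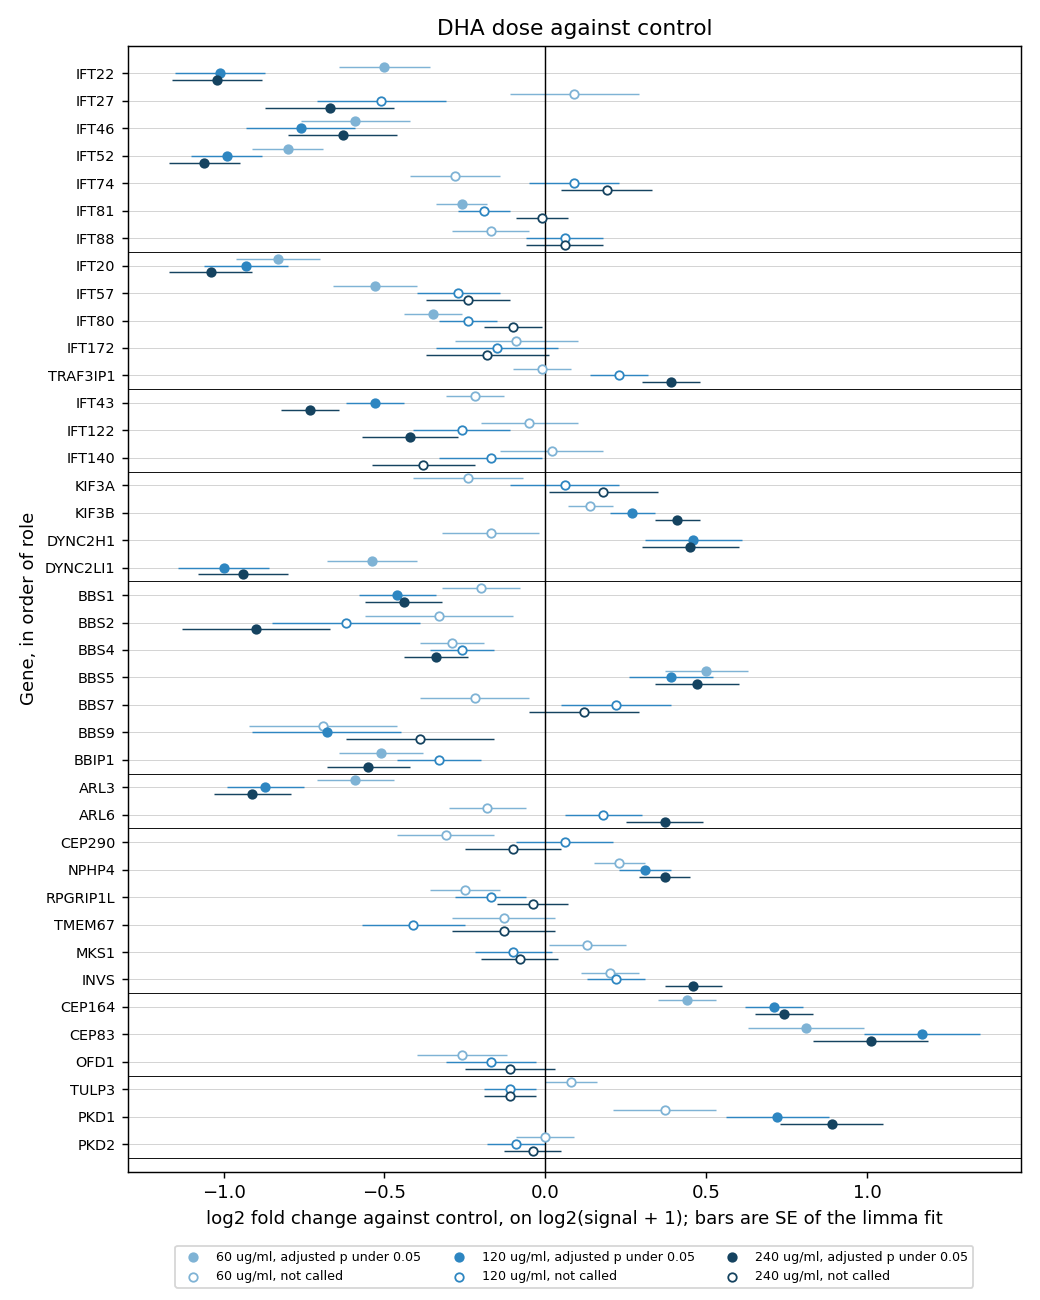
log2 fold change of each cilium gene against control at 60, 120 and 240 ug/ml, with bars of 1 SE from the limma fit. Filled points have an adjusted p under 0.05, and thin lines separate the roles. At 240 ug/ml the values run from -1.06 for IFT52 to 1.01 for CEP83.

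The IFT-B core, the stable heart of the anterograde train, had 4 of 7 genes lower and 0 higher at 240 ug/ml, although with equal totals 2 were lower and 3 (IFT74, IFT81 and IFT88) higher. IFT52, a scaffold on which the core assembles (ENSG00000101052.12, chromosome 20, 43590931 to 43647296 on the plus strand of GRCh38), had 60.8, 63.7 and 60.9 in control, 33.5, 37.8 and 34.1 at 60, 29.9, 26.5 and 35.8 at 120, and 32.3, 25.1 and 30.4 at 240 ug/ml. Each of its 9 DHA libraries lay below every control library, already at the lowest dose. Its log2 fold changes were -0.80 (SE 0.11, limma adjusted p = 0.00125), -0.99 and -1.06 (SE 0.11, adjusted p = 4.59e-05). IFT22, a small GTPase of the core, had 56.4, 57.3 and 50.1 in control, 33.5, 43.4 and 38.7 at 60, 23.8, 23.0 and 34.0 at 120, and 28.7, 23.7 and 27.0 at 240 ug/ml. It too lay wholly below control at each dose, and it was lower at 240 than at 60 ug/ml by -0.52 (SE 0.14, adjusted p = 0.0222). At 60 ug/ml its call (-0.50, SE 0.14, adjusted p = 0.0327) was lost without the first (-0.40) or the third (-0.50) library at that dose or control replicate 1 (-0.47) or 2 (-0.46). With the highest transcript, the calls for IFT22 at 60 and between 240 and 60 ug/ml were also lost. Transcripts annotated for nonsense-mediated decay held 40.1% of its signal in control and 43.2% at 240 ug/ml. Of these, IFT22-202 was lower at 60 ug/ml (-0.84, limma adjusted p = 0.00395). The coding IFT22-209 (-0.24) and IFT22-204 (-0.34) were not called there, and IFT22-209 was lower at 240 (-1.01, limma adjusted p = 0.0213).

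IFT46, which links the core to outgoing axonemal cargo in algae, had 11.1, 16.0 and 13.4 in control, 7.5, 8.9 and 9.3 at 60, 6.8, 7.1 and 8.6 at 120, and 10.9, 6.6 and 7.8 at 240 ug/ml. Its first library at 240 lay just under the lowest control library, and the change there was -0.63 (SE 0.17, adjusted p = 0.0112). IFT27, a small GTPase that helps the BBSome leave the cilium, followed another course, with 24.5, 27.6 and 19.0 in control, 27.7, 29.6 and 19.1 at 60, 16.5, 18.6 and 13.7 at 120, and 16.8, 16.1 and 11 at 240 ug/ml. Its libraries at 60 overlapped control and those at 120 and 240 did not, and 240 was below control by -0.67 (SE 0.20, adjusted p = 0.0189) and below 60 ug/ml by -0.76 (adjusted p = 0.0189). The call for IFT27 against control was lost without control replicate 1 (-0.64), control replicate 2 (-0.55) or the third library at 240 (-0.49), and that for IFT46 without control replicate 2 (-0.51). At 60 ug/ml the call for IFT46 (-0.59) was lost without the first (-0.51) or the second (-0.62) library at that dose or control replicate 2 (-0.47) or 3 (-0.59).

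IFT81, which binds tubulin together with IFT74, had 16.2, 15.6 and 17.2 in control, 13.0, 14 and 13.5 at 60, 13.8, 14.5 and 14.2 at 120, and 15.1, 17.7 and 15.9 at 240 ug/ml. Its libraries at 60 and 120 lay below control and those at 240 overlapped it. The change was -0.26 (SE 0.08, adjusted p = 0.0366) at 60 ug/ml, and 240 was above 60 by 0.25 (adjusted p = 0.0357); the first was lost on leaving out any library at 60 ug/ml, any control library, the first at 120 or the third at 240 (-0.22 to -0.29), and the second without any library at 60 (0.22 to 0.27), the second (0.19) or the third (0.26) at 240, control replicate 1 or the first at 120 (0.25 each). IFT74 averaged 6.10 ± 0.624 at 60 and 8.87 ± 1.56 at 240 ug/ml beside 7.60 ± 0.624 in control, and was called between 240 and 60 ug/ml alone (0.47, adjusted p = 0.0325), a call lost without any library at 60 (0.42 to 0.54) or the first (0.36) or the second (0.44) at 240. IFT88, whose mutation causes polycystic kidneys in the Oak Ridge mouse, averaged 5.20 ± 1.00 at 240 ug/ml and 4.90 ± 0.50 in control (0.06, SE 0.12, adjusted p = 0.719), and its libraries overlapped control at each dose.

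Among the 5 peripheral IFT-B genes, which dock motors and cargo on the train, 1 was lower and 1 higher at 240 ug/ml, also with equal totals. IFT20, the subunit that also sits at the Golgi (ENSG00000109083.13, chromosome 17, 28328325 to 28335489, minus strand), had 39.6, 47.9 and 36.6 in control, 21.7, 26.8 and 20.1 at 60, 20.1, 20.0 and 23.4 at 120, and 21.9, 17.3 and 19.3 at 240 ug/ml. All 9 DHA libraries lay below control, by -0.83 (SE 0.13, adjusted p = 0.00211), -0.93 and -1.04 (SE 0.13, adjusted p = 1.11e-04). TRAF3IP1 (IFT54), which binds microtubules, went the other way at the top dose, with 8.5, 8.1 and 9.0 in control, 8.0, 8.5 and 8.9 at 60, 9.3, 10.0 and 11.2 at 120, and 11.1, 11.2 and 12.1 at 240 ug/ml. Its libraries overlapped control at 60 ug/ml only, and 240 was above control by 0.39 (SE 0.09, adjusted p = 0.00393).

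As gene sums, IFT57 and IFT80 were called at 60 ug/ml alone. IFT57 had 25.9, 29.8 and 24.6 in control, 18.0, 17.0 and 19.7 at 60, 23.2, 19.6 and 23.5 at 120, and 20.8, 19.6 and 27.8 at 240 ug/ml (-0.53 at 60, SE 0.13, adjusted p = 0.0155). IFT80, mutated in a ciliary skeletal dysplasia, had 34.4, 32.6 and 37.6 in control, 24.8, 26.7 and 30 at 60, 28.9, 31.8 and 27.5 at 120, and 31.1, 34.9 and 31.4 at 240 ug/ml (-0.35 at 60, SE 0.09, adjusted p = 0.0205). For both, the libraries at 60 and 120 lay below control and those at 240 overlapped it. For IFT57 the call at 60 was lost without control replicate 2 (-0.45), whereas it was called at 240 too without the third library there (-0.39). IFT80 lost its call at 60 ug/ml without the first (-0.29) or the second (-0.34) library at that dose or without control replicate 1 (-0.36) or 3 (-0.30). IFT172 averaged 7.73 ± 0.723 at 240 ug/ml and 9.03 ± 2.30 in control and was not called (-0.18, SE 0.19, adjusted p = 0.472).

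The IFT-A genes serve the return journey and the entry of membrane proteins, and 2 of 3 were lower and 0 higher at 240 ug/ml (1 lower with equal totals). IFT43 had 42.9, 44.2 and 38.8 in control, 36.1, 37.4 and 34.4 at 60, 30.7, 28.3 and 27.1 at 120, and 28.6, 22.6 and 23.7 at 240 ug/ml. Its libraries lay below control at every dose and stepped down with dose without overlap between 60 and the higher doses. It was called from 120 ug/ml (-0.53, SE 0.09, adjusted p = 0.00116), at 240 (-0.73, SE 0.09, adjusted p = 1.22e-04) and between 240 and 60 (-0.52, adjusted p = 0.00414). IFT122 had 7.4, 7.5 and 8.6 in control, 6.4, 9.0 and 7.4 at 60, 6.5, 6.6 and 6.0 at 120, and 6.7, 4.2 and 6.1 at 240 ug/ml. Its call at 240 (-0.42, SE 0.15, adjusted p = 0.0405) held in 10 of the 25 alternative settings and was lost without the second library at 240 (-0.25) or the third (-0.48), or control replicate 1 (-0.46), 2 (-0.45) or 3 (-0.36). IFT140 averaged 6.07 ± 0.416 at 240 ug/ml and 8.23 ± 0.961 in control, with no overlap at that dose, and missed the threshold (-0.38, SE 0.16, adjusted p = 0.082); it was called without the third library at 60 ug/ml (-0.38).

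Within dynein-2, a subunit gene was lower and another higher at 240 ug/ml, also with equal totals, but the higher call held in 15 of 25 settings. DYNC2LI1, the light intermediate chain of dynein-2, had 23.1, 21.9 and 21.0 in control, 16.9, 16.7 and 11.4 at 60, 10.2, 11.4 and 10.0 at 120, and 12.6, 9.3 and 11.3 at 240 ug/ml. DYNC2H1, the heavy chain that provides the force of the same motor, had 7.9, 6.4 and 8.0 in control, 6.0, 5.2 and 8.6 at 60, 11.2, 10.9 and 9.7 at 120, and 11.6, 9.9 and 9.9 at 240 ug/ml. The light intermediate chain lay below control at each dose, while the heavy chain overlapped it at 60 and lay above it at 120 and 240. At 240 ug/ml the changes were -0.94 (SE 0.14, adjusted p = 3.66e-04) for DYNC2LI1 and 0.45 (SE 0.15, adjusted p = 0.0319) for DYNC2H1. The call for DYNC2H1 at 240 was lost with no filter (0.45, adjusted p = 0.067), with the length trend (0.33) or the GC trend (0.33) subtracted, with both and the replicate block (0.23), with the highest transcript (0.34), and without the first (0.38), the second (0.48) or the third (0.48) library at that dose or without control replicate 1 (0.49) or 2 (0.35), and that for DYNC2LI1 held in all 25 settings. At 120 ug/ml the call for DYNC2H1 (0.46, SE 0.15, adjusted p = 0.0309) was lost without the first (0.43) or the second (0.44) library there or control replicate 1 (0.51) or 2 (0.37). At 60 ug/ml the call for DYNC2LI1 (-0.54, SE 0.14, adjusted p = 0.0218) was lost without the third library (-0.37) or control replicate 1 (-0.51) or 2 (-0.55).

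KIF3B, a motor subunit of kinesin-2, had 16.5, 17.5 and 17.1 in control, 17.9, 18.4 and 20.4 at 60, 20.3, 21.1 and 20.8 at 120, and 21.7, 23.8 and 23.4 at 240 ug/ml. Its libraries stood above control at every dose and its means rose at each step, with calls at 120 (0.27, SE 0.07, adjusted p = 0.0114), at 240 (0.41, SE 0.07, adjusted p = 8.11e-04) and between 240 and 60 ug/ml (0.27, adjusted p = 0.0186). The last was lost without the first (0.23) or the second (0.25) library at 60 or the second (0.24) or the third (0.26) at 240. With the length trend subtracted, KIF3B (6103 nucleotides) was not called at 120 ug/ml or between 240 and 60. Its call at 240 against control held in all 25 settings. Its partner KIF3A averaged 6.73 ± 0.451 at 240 ug/ml and 5.93 ± 1.36 in control and was not called (0.18, SE 0.17, adjusted p = 0.434).

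**Figure D3:**
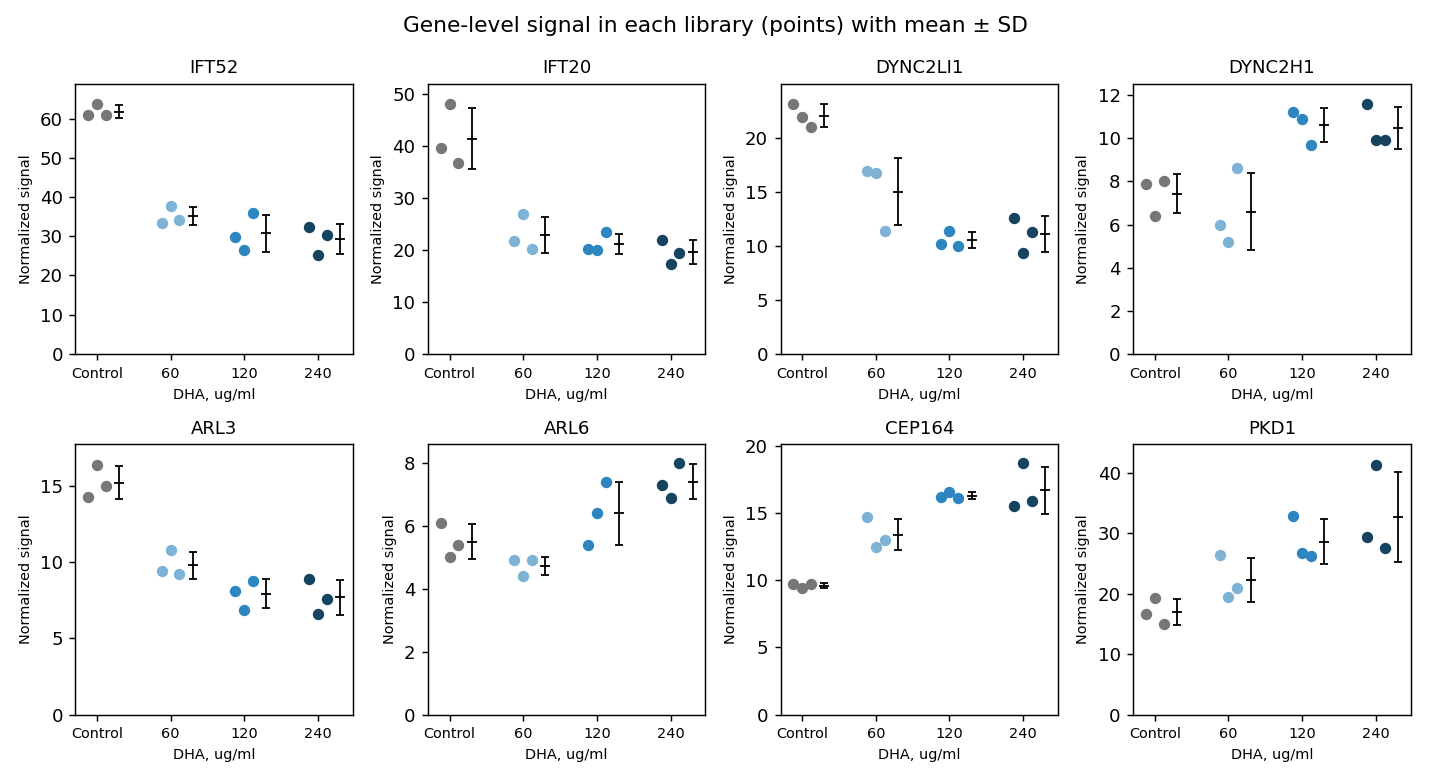
Signal of 8 cilium genes in each library by DHA dose (points, y axis from 0), with the mean and SD of 3 libraries beside them. IFT52, IFT20, DYNC2LI1 and ARL3 lie below control at every dose, CEP164 and PKD1 above it, and DYNC2H1 and ARL6 above it at 240 ug/ml.

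In the BBSome, the coat that carries receptors along the cilium, 4 of 7 genes were lower and 1 higher at 240 ug/ml, whereas with equal totals 0 were lower and 2 (BBS5 and BBS7) higher. BBS2 had 22.7, 23.9 and 18.4 in control, 19.4, 19.1 and 13.2 at 60, 14.8, 15.4 and 11.2 at 120, and 15.5, 7.2 and 12.1 at 240 ug/ml. Its libraries at 120 and 240 lay below control, spread widely at the top dose, and 240 was lower by -0.90 (SE 0.23, adjusted p = 0.00912). BBIP1, the smallest subunit, had 32.0, 30.2 and 34.0 in control, 22.7, 21.1 and 22.8 at 60, 27.0, 22.6 and 26.3 at 120, and 22.6, 16.8 and 26.2 at 240 ug/ml. It lay below control at each dose and was called at 60 (-0.51, SE 0.13, adjusted p = 0.0204) and 240 (-0.55, SE 0.13, adjusted p = 0.00576), not at 120 (-0.33, adjusted p = 0.0698). At 60 the call was lost without the first (-0.53) or the second (-0.48) library or control replicate 1 (-0.51) or 3 (-0.47).

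BBS1, which binds the membrane GTPase ARL6, had 16.1, 16.9 and 15.0 in control, 13.9, 16.2 and 11.6 at 60, 9.8, 11.1 and 13.4 at 120, and 11.2, 11.6 and 11.8 at 240 ug/ml, and was lower at 120 (-0.46, SE 0.12, adjusted p = 0.0134) and 240 (-0.44, SE 0.12, adjusted p = 0.0142). BBS4 had 11.5, 10.0 and 9.9 in control, 7.9, 9.1 and 8.2 at 60, 8.4, 8.1 and 9.1 at 120, and 9.3, 7.5 and 7.4 at 240 ug/ml (-0.34 at 240, SE 0.10, adjusted p = 0.0192). Both lay below control without overlap at 120 and 240 ug/ml. The call for BBS1 at 240 was lost without control replicate 2 (-0.40), its call at 120 without that library (-0.42) or the first at 120 (-0.36), and that for BBS4 at 240 without control replicate 1 (-0.28) or the second (-0.30) or the third (-0.29) library at 240.

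BBS5, a lipid-binding subunit, was the exception, with 2.3, 2.4 and 2.4 in control, 3.7, 3.7 and 3.9 at 60, 3.6, 3.7 and 3.0 at 120, and 3.3, 4.7 and 3.1 at 240 ug/ml. All 9 DHA libraries lay above control, with no dose trend: 0.50, 0.39 and 0.47 from the low to the high dose (SE 0.13, adjusted p = 0.0228, 0.0372 and 0.0148). It was the lowest of the 40 in control and its call at 240 was lost without the second library there (0.32), while those at 60 (0.48 to 0.51) and 120 ug/ml (0.35 to 0.40) were lost without any control library and without 2 of the 3 libraries of their dose. BBS9 had 4.3, 3.2 and 4.0 in control, 1.2, 1.7 and 3.5 at 60, 1.9, 1.8 and 2.3 at 120, and 3.2, 2.5 and 2.4 at 240 ug/ml, and was called at 120 ug/ml alone (-0.68, SE 0.23, adjusted p = 0.0332). That call was lost without the first (-0.66) or the second (-0.64) library at 120 or control replicate 1 (-0.61) or 3 (-0.66). BBS7 averaged 15.3 ± 2.26 at 240 ug/ml and 13.9 ± 1.22 in control (0.12, SE 0.17, adjusted p = 0.593).

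As gene sums, the ARL GTPases diverged at 240 ug/ml, as they did with equal totals. The higher call, for ARL6, held in 19 of 25 settings. ARL3, which releases lipid-anchored proteins inside the cilium, had 14.3, 16.4 and 15.0 in control, 9.4, 10.8 and 9.2 at 60, 8.1, 6.9 and 8.8 at 120, and 8.9, 6.6 and 7.6 at 240 ug/ml. ARL6 (BBS3), which brings the BBSome to the membrane, had 6.1, 5.0 and 5.4 in control, 4.9, 4.4 and 4.9 at 60, 5.4, 6.4 and 7.4 at 120, and 7.3, 6.9 and 8.0 at 240 ug/ml. ARL3 lay below control at each dose, by -0.59 (SE 0.12, adjusted p = 0.00621), -0.87 and -0.91 (SE 0.12, adjusted p = 1.35e-04). ARL6 lay below control at 60 ug/ml, overlapped it at 120 and lay above it at 240, where it was higher by 0.37 (SE 0.12, adjusted p = 0.0222) and above 60 ug/ml by 0.55 (adjusted p = 0.00751). Leaving out control replicate 2 (0.32) or 3 (0.36) or the third library at 240 (0.32) ended the call for ARL6 against control. So did subtracting the GC trend, subtracting both trends with the replicate block, and using the highest transcript. At 240 ug/ml neither the coding ARL6-204 (0.29, SE 0.16, limma adjusted p = 0.238) nor the processed ARL6-208 (0.55, SE 0.25, limma adjusted p = 0.143) was called. Coding transcripts held 56.8% of the ARL6 signal at 240 ug/ml and 68.1% in control.

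Of the 6 members of the transition zone and the inversin compartment, 2 were higher and 0 lower at 240 ug/ml, and 3 and 0 with equal totals. NPHP4, a nephrocystin of the transition zone, had 10.0, 9.8 and 9.9 in control, 11.7, 12.1 and 11.6 at 60, 12.7, 13.1 and 11.8 at 120, and 13.0, 14.5 and 11.8 at 240 ug/ml (0.37 at 240, SE 0.08, adjusted p = 0.00394). INVS, which encodes inversin, mutated in infantile nephronophthisis, had 7.4, 7.1 and 6.3 in control, 7.6, 9.0 and 7.8 at 60, 8.3, 8.0 and 8.4 at 120, and 10.3, 10.4 and 9.0 at 240 ug/ml (0.46 at 240, SE 0.09, adjusted p = 0.00235). Both stood above control at all doses; NPHP4 was also called at 120 ug/ml (0.31, adjusted p = 0.0118). The NPHP4 calls were lost when only its highest transcript, the coding NPHP4-201, was used (0.15, adjusted p = 0.241 at 240 ug/ml and 0.14 at 120), and its coding transcripts held 57.5% of the gene's signal at 240 ug/ml and 69.0% in control. The gate proteins CEP290 (-0.10), RPGRIP1L (-0.04), TMEM67 (-0.13) and MKS1 (-0.08) were not called at any dose, with SEs of 0.11 to 0.16, and their libraries at 240 ug/ml overlapped control.

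Of the 3 centriole genes, 2 were higher at 240 ug/ml under both scalings. CEP164, the distal appendage protein that recruits the kinase starting cilium assembly (ENSG00000110274.15, chromosome 11, 117314557 to 117413268, plus strand), had 9.7, 9.4 and 9.7 in control, 14.7, 12.5 and 13.0 at 60, 16.2, 16.6 and 16.1 at 120, and 15.5, 18.7 and 15.9 at 240 ug/ml. CEP83, which anchors CEP164 at the centriole (ENSG00000173588.14, chromosome 12, 94306449 to 94459988, minus strand), had 8.2, 7.7 and 13.2 in control, 14.4, 16.5 and 21.8 at 60, 20.5, 24.1 and 22.8 at 120, and 18.9, 21.9 and 19.5 at 240 ug/ml. Every DHA library of either gene was above every control library, although the third control library of CEP83 stood well above the other two. The changes at 240 ug/ml were 0.74 (SE 0.09, adjusted p = 7.61e-05) for CEP164 and 1.01 (SE 0.18, adjusted p = 0.00105) for CEP83, and both genes were called at all 3 doses in each of the 25 settings, although single coding transcripts were not called at 60 ug/ml (given with the transcripts). OFD1, of the centriole and its satellites, averaged 8.10 ± 1.13 at 240 ug/ml and 8.77 ± 0.702 in control (-0.11, SE 0.14, adjusted p = 0.573).

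Among the membrane proteins and their carrier, PKD1 was higher, while PKD2 and TULP3 were not called as deposited and were higher with equal totals. PKD1, polycystin-1 (ENSG00000008710.19, chromosome 16, 2088710 to 2135898, minus strand), had 16.6, 19.3 and 15.0 in control, 26.4, 19.4 and 21.0 at 60, 32.8, 26.7 and 26.2 at 120, and 29.3, 41.2 and 27.5 at 240 ug/ml (0.89 at 240, SE 0.16, adjusted p = 0.00114). Its DHA libraries all lay above control, at 60 by a narrow margin. PKD1 has near-identical pseudogenes that carry signal of their own, so its level is uncertain. The highest of them, PKD1P1, had 26.6, 25.8 and 22.9 at 240 ug/ml against 26.4, 27.3 and 34.6 in control. PKD1P6-NPIPP1 lay above control, at 6.2, 6.7 and 4.5 against 3.2, 3.3 and 3.7. So did PKD1P6, at 5.5, 8.8 and 5.6 against 4.0, 5.2 and 4.0. PKD1P5 and a further, lower PKD1P1 entry overlapped control. The part of shared reads in the PKD1 change was not tested. PKD2, the channel that pairs with polycystin-1, averaged 22.3 ± 2.82 at 240 ug/ml and 22.9 ± 1.39 in control (-0.04, SE 0.09, adjusted p = 0.735). TULP3, the adaptor that ferries receptors into cilia with IFT-A, averaged 24.1 ± 0.907 and 26.1 ± 0.473 in the same groups (-0.11, SE 0.08, adjusted p = 0.27).

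The 240 and 60 ug/ml groups were compared directly. Here 8 members were higher and 3 lower at 240, where 24.8% of all genes were called, 11.7% higher and 13.1% lower, and with equal totals 14 were higher and 1 lower. The balance did not hold under other settings: 5 were higher and 5 lower with the GC trend subtracted, 4 and 4 with the length trend subtracted, 4 and 6 with both and the replicate block, and 7 and 8 without the third library at 60 ug/ml. The lower ones were IFT22, IFT27 and IFT43, and the higher ones IFT74, IFT81, TRAF3IP1, KIF3B, DYNC2H1 (0.62), ARL6, CEP164 (0.30) and PKD1 (0.52). For 13 members the mean was lowest at 60 ug/ml, IFT74, IFT80, IFT81, IFT88, DYNC2H1 and ARL6 among them. The share of all genes with their lowest mean at that dose was not computed. IFT74, IFT88, KIF3A, BBS7, CEP290, RPGRIP1L and OFD1, all of the 13, were not called by the F statistic (adjusted p = 0.0706 to 0.443). These 13 had a median GC content of 39.8% (34.2% to 47.3%), beside 48.6% for the other 27. Across all 12723 protein-coding genes tested, the fold change of 240 over 60 ug/ml correlated with GC content at r = -0.49, and at r = -0.36 across the 40. By library, the difference from the control mean correlated with GC at r = 0.48, 0.41 and 0.12 at 60 ug/ml at -0.07, -0.06 and -0.16 at 240 ug/ml, and at 0.02, 0.29 and -0.28 in control, a wider spread than within either dose. With each library's GC trend subtracted, IFT74, IFT81, DYNC2H1 and ARL6 were no longer called between 240 and 60 ug/ml, and the part of base composition in the low at 60 was not tested further. The count was 3 without the second library at 60 ug/ml, 6 without the first, 15 without the third, and 5 and 6 without the second and the third library at 240; TRAF3IP1, IFT43 and ARL6 were called in all 12 of these fits. The call was lost for IFT22 without the second library at 60 (-0.43) or the second (-0.45) or the third (-0.54) at 240, and for IFT27 without the first (-0.69) or the second (-0.64) at 60 or the third at 240 (-0.58). It was lost for DYNC2H1 without the first (0.57) or the second (0.48) library at 60. For CEP164 it was lost without the second (0.25) or the third (0.28) at 60 or the second (0.22) or the third (0.33) at 240, and for PKD1 without the second (0.43) or the third (0.49) at 60, the second at 240 (0.35) or control replicate 1 (0.52).

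Transcript length ran alongside these changes. Over the 40 members the log2 fold change at 240 ug/ml correlated with log2 transcript length at r = 0.48 (Spearman 0.50), and over the 12723 coding genes at r = 0.32 (Spearman 0.34), the points of each sharing the same 6 libraries. Coding genes were put in 5 equal groups by length. Among the shortest, up to 1357 nucleotides, 45.7% were lower and the median was -0.35; all 5 members in that group (IFT22, IFT20, IFT43, DYNC2LI1 and BBIP1) were lower, with a median of -0.94. Among the longest, from 3872 nucleotides, 39.3% were higher, as were 3 of 5 members. Some members went against this trend: ARL3 (3844 nucleotides) and BBS2 (2884) were lower and CEP83 (1361) was higher. Lengths are weighted by signal over each gene's transcripts. That of CEP83 mixes the processed CEP83-210, of 241 nucleotides, with the coding CEP83-201, of 3130, and both were higher. With each library's length trend subtracted, 9 members were higher and 14 lower at 240 ug/ml: DYNC2H1 was lost, IFT140 gained, and IFT22, IFT52, IFT20, IFT43, DYNC2LI1 and ARL3 remained lower.

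**Figure D4:**
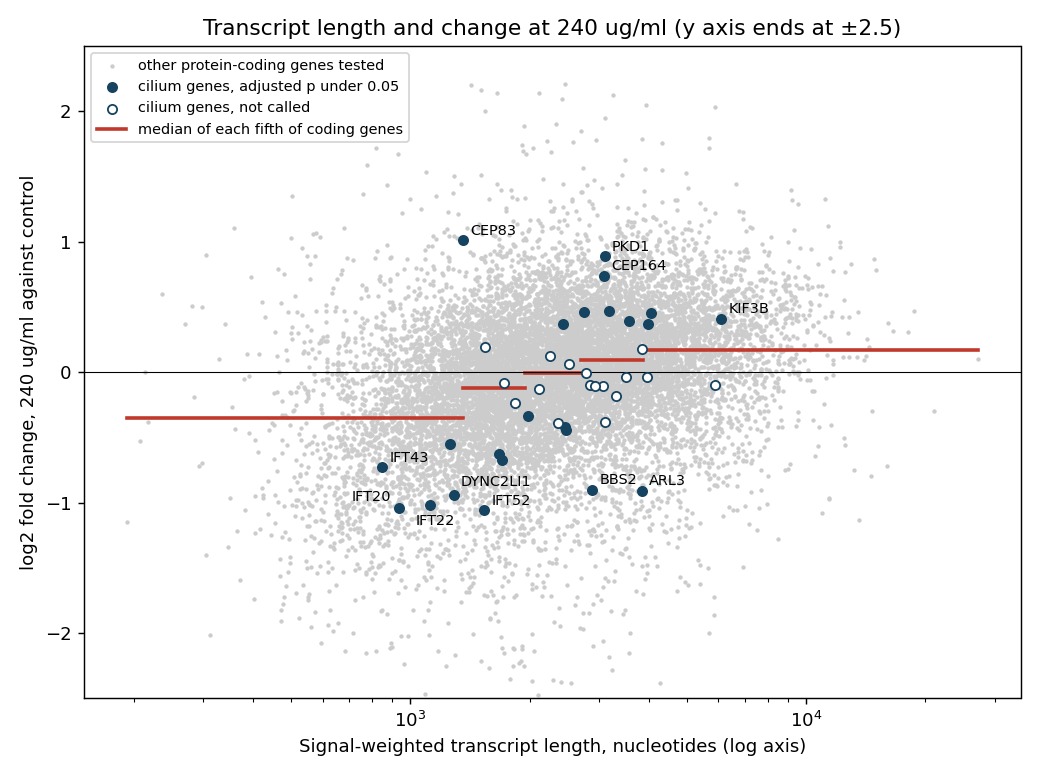
Signal-weighted transcript length (log axis, nucleotides) and log2 fold change at 240 ug/ml against control for protein-coding genes (grey) and the 40 cilium genes (circles, filled where the adjusted p is under 0.05). Red bars are medians of 5 equal groups of coding genes by length, and run from -0.35 in the shortest to 0.17 in the longest.

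Single transcripts were fitted separately, a choice made after seeing the data. Of 100 transcripts of the 40 genes with a mean of at least 1, 9 were higher and 21 lower at 240 ug/ml, where 20.7% of 54340 transcripts were called in either direction. At 120 ug/ml 8 were higher and 15 lower (15.3% of all transcripts), at 60 ug/ml 1 and 5 (3.69%). The 54340 transcripts passed the looser filter of at least 1 in at least 3 libraries, which admits lower ones. Their calls were not split by direction, so the shares cannot be compared directly with the member counts. The main coding transcript of IFT57, IFT57-201, was lower at 120 (-0.47, SE 0.10, adjusted p = 0.00992) and 240 ug/ml (-0.46, SE 0.10, adjusted p = 0.00863), where the gene sum was not called, and missed the threshold at 60 (-0.41, adjusted p = 0.0503). Gene sums hid opposed changes in IFT80: its main coding transcript IFT80-201 was at 11.1, 13.2 and 9.3 at 240 ug/ml against 17.8, 17.1 and 18.9 in control (-0.65, SE 0.12, adjusted p = 0.00382), while IFT80-220, also coding, was at 4.0, 4.6 and 5.2 against 3.1, 1.0 and 1.8 (0.97, SE 0.27, adjusted p = 0.0248). The share of IFT80-201 in the gene's signal was 34.4% at 240 ug/ml and 51.5% in control. IFT140 likewise held a coding transcript that fell, IFT140-203, at 1.7, 1.9 and 1.2 at 240 ug/ml against 3.3, 4.3 and 2.7 in control (-0.76, SE 0.21, adjusted p = 0.0263), beside a processed one, IFT140-204, with a change of 0.00 (SE 0.17).

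For CEP83, part of the rise lay in CEP83-210, a processed transcript of 241 nucleotides (1.29 at 240 ug/ml, SE 0.36, adjusted p = 0.0271, its libraries overlapping control). The coding CEP83-201 was also higher, at 5.2, 5.4 and 5.6 at 240 ug/ml against 2.8, 3.2 and 3.4 in control (0.63, SE 0.13, adjusted p = 0.00665). At 60 ug/ml CEP83-210 was higher (1.69, SE 0.36, adjusted p = 0.0297) while CEP83-201 was not called (0.13, SE 0.13, adjusted p = 0.66). CEP164-201, the full coding transcript of that gene, was higher at 240 ug/ml (0.59, SE 0.12, adjusted p = 0.00568) and not called at 60 (0.37, SE 0.12, adjusted p = 0.116). Of the PKD1 signal, 59.9% at 240 ug/ml and 60.9% in control came from retained-intron transcripts, PKD1-208 (0.53, SE 0.14, adjusted p = 0.0234) being the most abundant, and its coding PKD1-201 missed the threshold (0.57, SE 0.19, adjusted p = 0.0551). DYNC2H1 drew 43.8% of its signal at 240 ug/ml and 45.3% in control from a transcript annotated for nonsense-mediated decay, and its full coding transcript DYNC2H1-202 was not called (0.25, SE 0.13, adjusted p = 0.188). Both main coding transcripts of IFT52 fell (-1.08 and -0.89), and so did those of DYNC2LI1 (-0.97 and -1.01). For 17 of the 40 genes the span of a coding gene with signal on the opposite strand overlaps (SMC4 over IFT80, TELO2 over IFT140, TSC2 over PKD1). On the same strand, coding genes overlap IFT43 (TTLL5, mean signal 24.8) and TULP3 (RHNO1, mean signal 37.5). Whole gene spans were compared, not exons, and the strand setting of the quantification is not stated. Whether reads were shared between these genes was therefore not tested.

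**Figure D5:**
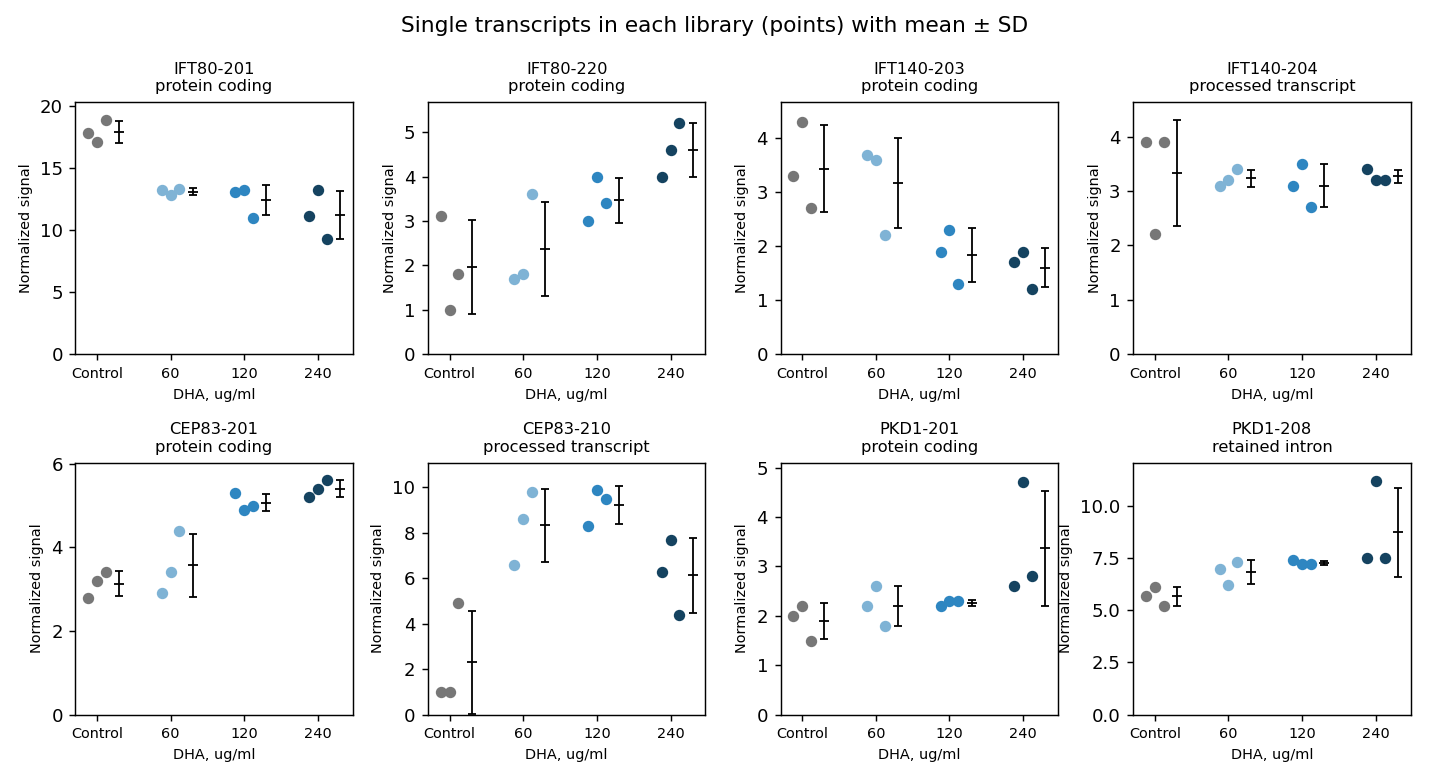
Signal of 8 single transcripts in each library by DHA dose (points, y axis from 0), with the mean and SD of 3 libraries beside them. IFT80-201 and IFT140-203 lie below control at 240 ug/ml while IFT80-220 lies above it, and CEP83-201 lies above control at 120 and 240 ug/ml.

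Promoters of ciliary genes are known targets of RFX transcription factors, which bind the X-box, an inverted repeat of half-sites. RefSeq windows (250 bases before to 50 after the start, GRCh38.p14) were at hand for 37 of the 40 genes. The half-site GTTGCC, on either strand, was in 16 of 37 (43.2%), against 14.6% of 27305 genes in the table, and the looser pair GTNNCC and NGNAAC, 0 to 3 bases apart, in 6 (16.2%) against 6.08%. Genes of both directions held the half-site: 4 of 10 higher at 240 ug/ml, 6 of 12 lower and 6 of 15 not called. The dynein-2 pair shows this, as one gene was lower and the other higher, and so do ARL6 and CEP164, both higher; IFT52, the most reduced member, had no match in its window. Shown are 100 bases before to 30 after the RefSeq start, on the plus strand, with the half-site (GTTGCC, or GGCAAC on the other strand) or the pair in capitals: chr2:43773939-43774068 for DYNC2LI1, chr11:103109326-103109455 for DYNC2H1, chr3:97764658-97764787 for ARL6, chr11:117327754-117327883 for CEP164 and chr20:43590837-43590966 for IFT52.
DYNC2LI1: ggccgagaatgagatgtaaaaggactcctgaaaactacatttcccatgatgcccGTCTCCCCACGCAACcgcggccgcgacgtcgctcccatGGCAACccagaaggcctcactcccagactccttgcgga
DYNC2H1: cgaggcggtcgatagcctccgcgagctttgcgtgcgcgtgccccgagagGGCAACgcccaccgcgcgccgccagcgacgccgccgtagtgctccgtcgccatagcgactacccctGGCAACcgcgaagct
ARL6: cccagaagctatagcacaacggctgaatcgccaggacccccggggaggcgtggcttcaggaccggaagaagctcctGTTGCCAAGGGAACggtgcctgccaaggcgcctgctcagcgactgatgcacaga
CEP164: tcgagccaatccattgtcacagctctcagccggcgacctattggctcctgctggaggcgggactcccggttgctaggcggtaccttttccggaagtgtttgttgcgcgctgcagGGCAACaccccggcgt
IFT52: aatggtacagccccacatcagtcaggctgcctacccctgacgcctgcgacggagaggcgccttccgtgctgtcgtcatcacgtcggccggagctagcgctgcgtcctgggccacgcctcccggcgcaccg
A match is a run of letters, not a measured binding site.

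Beyond the 40, 79 other structural and trafficking genes of the cilium were listed, of which 78 passed the filter. At 240 ug/ml 27 of them were lower and 13 higher, with a median of -0.11, but 12 were lower and 31 higher with equal totals, where the median was 0.26 beside 0.34 over all genes. As deposited, 23.5% of all genes were lower and 19.7% higher, and of protein-coding genes 26.9% and 23.1%. The counts of the lists below stand beside these shares. Other motor subunits were lower in 7 of 8 and higher in 0 (4 and 1 with equal totals). Among the lower ones was DYNLT1, a dynein light chain, at 184.4, 111.2 and 137.3 at 240 ug/ml against 298.5, 329.6 and 291.9 in control (-1.11, SE 0.18, adjusted p = 4.90e-04). At 748 nucleotides DYNLT1 fell in the shortest group of coding genes, where 45.7% were lower. What part of the DYNLT1 signal serves the cilium was not tested. Other transition zone and inversin genes were lower in 8 of 19 and higher in 2 (5 and 3 with equal totals). The lowest of these was TMEM107, which helps hold the transition zone complex, at 6.7, 3.7 and 5.3 at 240 ug/ml against 12.6, 13.5 and 12.1 in control (-1.17, SE 0.22, adjusted p = 0.00126). Appendage, satellite and assembly genes, the class of CEP164 and CEP83, were higher in 7 of 24 and lower in 3 (15 and 0 with equal totals).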

How the data were processed

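mRNA of HK-2 cells was measured in 12 libraries, 3 in each of 4 groups taken from the sample titles. Per the labels' protocols, poly(A) RNA was selected and sequenced paired-end after dUTP marking of the second strand. The authors deposited 1 normalized signal value per transcript and library, to 1 decimal, for 267165 transcripts. The build is GRCh38.p14 per the submitters' processing notes; no source used here names the tools, annotation or strand setting. Read depth is unknown. Whether libraries came from separate cultures is not stated, so the p-values rest on a spread between libraries that may be technical.

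Transcripts were matched to GENCODE release 29 (202305, 75.7%) and summed per gene. Because the table holds no counts, limma-trend (limma 3.58.1, R 4.3.3) was fitted to log2(signal + 1) of 16789 genes with a signal of at least 1 in at least 3 libraries, one mean per group, two-sided, with Benjamini-Hochberg adjustment over all genes. The + 1 understates changes of low genes. The code was tested on simulated data. Alternatives were other scalings, pseudocounts, filters, a replicate block, length and GC trends, the highest transcript per gene, and leaving out each library. All 40 genes are named; of other lists, the called genes with the 3 highest and 3 lowest changes at 240 ug/ml, and those a description turns on. Members and lists were chosen with earlier results of these data known.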

Additional observations from a re-analysis of the deposited data

How the results depend on the processing

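At 240 ug/ml against control, 17 to 24 members and 5828 to 8755 genes were called in the 25 alternatives, and 12 of the 23 member calls held in all of them. At 120 ug/ml 8 of 16 calls held in all 25, at 60 ug/ml 5 of 13, and between 240 and 60 ug/ml 2 of 11. At 60 ug/ml the 13 members called became 8 with equal totals, with the GC trend subtracted or with the highest transcript, and 7 to 14 on leaving out a library (7 without the first library at 60 ug/ml or without control replicate 1 or 2, 8 without control replicate 3); for all genes, 3177 calls became 1877 to 3444, with 1946 without the first library at 60 ug/ml, 1877 without control replicate 1 and 2113 without control replicate 3. Between 240 and 60 ug/ml the 11 members became 7 with no filter, 5 with the highest transcript, 6 with only those 2 groups fitted and 3 to 15 on leaving out a library, and the 4168 genes became 2764 with the GC trend subtracted, 2457 with only those 2 groups and 2070 to 5008 on leaving out a library (2091 without the first and 2070 without the second library at 60, 2725 without the second and 2498 without the third at 240). Equal totals turned the sign at 240 ug/ml of IFT81 (0.40), BBS4 (0.05), RPGRIP1L (0.35), TULP3 (0.31) and PKD2 (0.38), and of IFT57 (0.18), IFT80 (0.32), IFT172 (0.21), CEP290 (0.22), TMEM67 (0.24), MKS1 (0.32) and OFD1 (0.28), which neither scaling called, as the shift of all genes does by construction. The call of IFT81 between 240 and 60 ug/ml turned to -0.03 with the GC trend subtracted and to -0.04 with both trends and the replicate block; the cause was not tested.

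Replicate numbers paired no samples in the labels. The 18 pairs of same-numbered libraries correlated in their deviations at -0.02 to 0.24 (median 0.055, 6 over 0.1), and 8 of 12 libraries correlated best with their own number. With the replicate block, 15, 20 and 23 members were called at 60, 120 and 240 ug/ml against control and 14 between 240 and 60; at 240 IFT122 was lost and IFT140 gained.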

Other observations

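Of the 9 genes listed under cilium disassembly, 240 ug/ml raised 5 and reduced 1 (7 and 1 with equal totals). As deposited, 19.7% of all genes were called higher and 23.5% lower at that dose, and 23.1% and 26.9% of protein-coding genes. The part each listed gene plays in disassembly was not tested. PLK1, a mitotic kinase that promotes disassembly, was at 109.4, 104.2 and 93.8 at 240 ug/ml against 51.7, 53.0 and 62.7 in control (0.87, SE 0.12, limma adjusted p = 2.18e-04), and AURKA, the kinase that starts disassembly, averaged 113 ± 14.8 against 79.1 ± 7.16 (0.50, adjusted p = 0.0174). The single lower gene was NEDD9, the scaffold that activates AURKA at the basal body, at 22.6, 19.8 and 16.5 at 240 ug/ml against 46.5, 50.5 and 43.1 in control (-1.22, SE 0.15, adjusted p = 9.32e-05). Among cell cycle genes 7 of 12 were higher and 0 lower (9 and 0 with equal totals), led by MKI67, a marker of cycling cells, at 68.6, 72.7 and 77.5 against 30.7, 28.6 and 40.8 (1.12, SE 0.18, adjusted p = 4.38e-04), with AURKB at 0.79 (SE 0.11, adjusted p = 2.56e-04). Cycling cells resorb their cilia, and the part of the cell cycle in the changes of the cilium genes and of the disassembly genes was not tested.

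Of the Hedgehog pathway, which signals through the cilium in vertebrates, 11 of 15 genes passed the filter. At 240 ug/ml 5 were lower and 0 higher (1 and 1 with equal totals), beside 23.5% and 19.7% of all genes as deposited. The receptor component SMO averaged 4.70 ± 0.20 at 240 ug/ml and 7.97 ± 0.503 in control (-0.65, adjusted p = 9.40e-04), and the restraining receptor GPR161 5.80 ± 0.50 and 9.07 ± 1.25 (-0.56, adjusted p = 0.00238). The pathway's usual target genes were not called: GLI1 averaged 1.30 ± 0.529 and 2.33 ± 0.551 (-0.55, adjusted p = 0.0599) and PTCH1 2.13 ± 0.635 and 2.07 ± 0.252 (0.01, adjusted p = 0.97). Of transcription factors of ciliary genes, 10 of 14 passed the filter, and RFX7 and MCIDAS were higher and RFX5 lower (3 higher and 0 lower with equal totals).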
